A study of Canis lupus familiaris with 33 samples.

Results

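The neutrophil granule and calgranulin genes S100A8, S100A9, S100A12, CSF3R, MPO, LTF and ELANE were examined in lymph nodes of dogs with diffuse large B-cell lymphoma (DLBCL) and of healthy dogs. The members were all probesets whose only gene symbol in the platform annotation was 1 of these 7 genes. 9 of the 43035 probesets on the array met this rule, and they measured 6 of the 7 genes. 3 probesets belonged to CSF3R, 2 to LTF and 1 each to S100A8, S100A9, MPO and ELANE, while S100A12 was not analysed here.

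Expression was measured in 33 lymph node RNA samples on Affymetrix Canine Genome 2.0 GeneChips, single-colour arrays in which several short probes make up each probeset. The values were log2 intensities after robust multi-array averaging (RMA), which subtracts background, equalises the arrays and summarises the probes, so that a difference of 1 is a doubling. The naïve group held 16 DLBCL biopsies from dogs without earlier chemotherapy, aged 2.7 to 13.3 years. The relapsed group held 7 DLBCL biopsies from dogs that had received chemotherapy, aged 6.4 to 11.8 years and 13 to 672 days after their last treatment. The labels name CHOP, a combination of cyclophosphamide, doxorubicin, vincristine and prednisone, for 4 of these 7 and other protocols for the other 3. Listed current medications were rimadyl in 2 naïve dogs, doxycycline in 1 naïve dog and tramadol in 1 relapsed dog, with none listed for 6 naïve and 6 relapsed dogs and no entry for 7 naïve dogs. The healthy group held 10 arrays of nodes taken from dogs euthanised for conditions other than lymphoma, whose age, breed and medication are not given.

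The 10 healthy arrays came from 7 dogs, because 4 arrays carry the case number of 1 animal, called healthy dog 1 here. DLBCL samples 11 (naïve) and 12 (relapsed) also came from 1 dog, so that the 23 DLBCL arrays represent 22 dogs. Arrays of a dog were averaged for the comparisons unless stated, except that the dog of samples 11 and 12 stood in both the naïve and the relapsed group where these were separate. The RNA integrity number, a score of how intact the RNA is, was 9.69 ± 0.28 (SD, n = 16) in naïve, 9.56 ± 0.33 (SD, n = 7) in relapsed and 7.11 ± 1.12 (SD, n = 7) in healthy dogs. Within the healthy group the 4 arrays of healthy dog 1 had the highest RNA integrity, up to 9.4. Mean values of the 17 tag control probesets, designed against non-canine sequences, lay between 2.79 and 4.56, and array medians were 6.85 to 6.97.

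DLBCL sample 5 (1 array) and healthy dog 1 (4 arrays) most affect these genes and stood apart before any comparison of groups. They are called both libraries below. DLBCL sample 5, a naïve dog aged 12.6 years with no medication listed, had the lowest value of the 22 DLBCL dogs in 7 of 8 B cell genes. The median of their differences from the median of the other DLBCL dogs was -2.61, and over all named genes it was -0.025. MS4A1, which encodes the B cell surface protein CD20, was at 8.51 in this sample and between 12.57 and 13.86 in the other 21 DLBCL dogs, so this array went against the B cell content of its label. Healthy dog 1 was above all 6 other healthy dogs in 14 of 14 monocyte and macrophage genes, and in 18.6% of named genes. The comparisons of the member genes are given with and without them. Sample 5 was also singled out with its high neutrophil genes known.

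Neutrophils are short-lived phagocytes made in the bone marrow, and their antimicrobial proteins are packed into granules that form in a fixed order. MPO, the peroxidase that makes hypochlorous acid, and ELANE, the serine protease neutrophil elastase, belong to the primary granules, whose messages are made mainly in promyelocytes. LTF, the iron-binding lactoferrin, belongs to the secondary granules and follows in myelocytes. S100A8 and S100A9 pair to form calprotectin, the most abundant cytosolic protein of neutrophils, which is also made by monocytes. CSF3R is the receptor for granulocyte colony-stimulating factor, which drives granulocyte production and is expressed through neutrophil maturation. In the RefSeq annotation of the dog genome (assembly UU_Cfam_GSD_1.0) S100A8, S100A12 and S100A9 are direct neighbours on chromosome 7, while CSF3R lies on chromosome 15, MPO on chromosome 9 and both LTF and ELANE on chromosome 20.

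The calgranulins ranged widely between dogs. In healthy dogs S100A8 ranged from 9.04 through a median of 10.57 to 13.08, with a mean of 10.76 ± 1.24 (SD, n = 7). In naïve DLBCL it ranged from 6.81 through 8.75 to 14.06 (mean 9.19 ± 1.91, SD, n = 16), and in relapsed DLBCL from 9.40 through 10.40 to 12.10 (mean 10.43 ± 0.92, SD, n = 7). The highest naïve value was that of sample 5 and the highest healthy value that of healthy dog 1, and without them the naïve dogs reached 11.04 and the healthy dogs 11.13. All 7 relapsed dogs lay above the naïve median, and the groups overlapped: 8 of 22 DLBCL dogs were below every healthy dog, 13 were within the healthy range and 1 was above it.

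S100A9 repeated this order of the groups. It ranged from 7.86 through 9.33 to 12.18 in healthy dogs, from 6.11 through 7.73 to 13.40 in naïve DLBCL and from 8.42 through 9.14 to 10.93 in relapsed DLBCL. Again 8 DLBCL dogs were below, 13 within and 1 above the range of the healthy dogs. Without healthy dog 1, 2 DLBCL dogs were above that range in S100A8 and 4 in S100A9. Sample 9, a relapsed dog 32 days after its last treatment, had the highest calgranulin values of the DLBCL dogs other than sample 5, with S100A8 at 12.10 and S100A9 at 10.93. In the dog biopsied on both occasions, S100A8 was at 8.88 in the naïve and 10.60 in the relapsed sample, and S100A9 at 7.62 and 9.14.

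Of the primary granule genes, ELANE was narrow in range apart from healthy dog 1, and MPO had its highest values in that dog and sample 5. ELANE lay between 5.50 and 5.91 in 6 healthy dogs and at 8.83 in healthy dog 1, between 5.38 and 6.22 (median 5.77) in naïve DLBCL and between 5.32 and 6.29 (median 5.70) in relapsed DLBCL. Healthy dog 1 was thus the single dog with ELANE above 6.29, and all 4 of its arrays showed it, from 8.44 to 9.45. MPO lay between 6.47 and 7.62 in 6 healthy dogs and at 10.82 in healthy dog 1. In naïve DLBCL MPO ranged from 5.97 through a median of 6.40 to 10.79, the highest being sample 5, and in relapsed DLBCL from 6.16 through 7.05 to 7.93.

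LTF, the secondary granule gene, differed widely between tumours, and sample 5 was not its highest by the brighter probeset. By that probeset it ranged from 8.73 through 9.02 to 11.80 in healthy dogs, from 6.18 through 8.49 to 10.67 in naïve DLBCL and from 6.92 through 8.66 to 10.94 in relapsed DLBCL. 12 of 22 DLBCL dogs lay below every healthy dog and none above healthy dog 1, but 3 lay above the other 6 healthy dogs. The second LTF probeset was dimmer and did not repeat the group order, with medians of 5.44 in healthy, 5.75 in naïve and 5.71 in relapsed dogs. By it sample 5 was the highest of the DLBCL dogs, at 7.02 with the next at 6.91.

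CSF3R had close medians in the groups by all 3 of its probesets. The brightest ranged from 5.64 through 6.02 to 6.26 in healthy dogs, from 5.46 through 5.88 to 9.02 in naïve DLBCL and from 5.77 through 6.02 to 6.33 in relapsed DLBCL. Sample 5 was 2.53 above the next DLBCL dog. Without sample 5 the DLBCL mean of this probeset was below that of the second one (5.93 against 6.01), as was its healthy mean (5.94 against 5.99). Its choice as the brightest thus rested on sample 5, and so do the CSF3R values given below by 1 probeset. The dimmest probeset lay between 4.52 and 5.26 in all dogs, near the upper end of the tag controls.

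**Figure D1:**
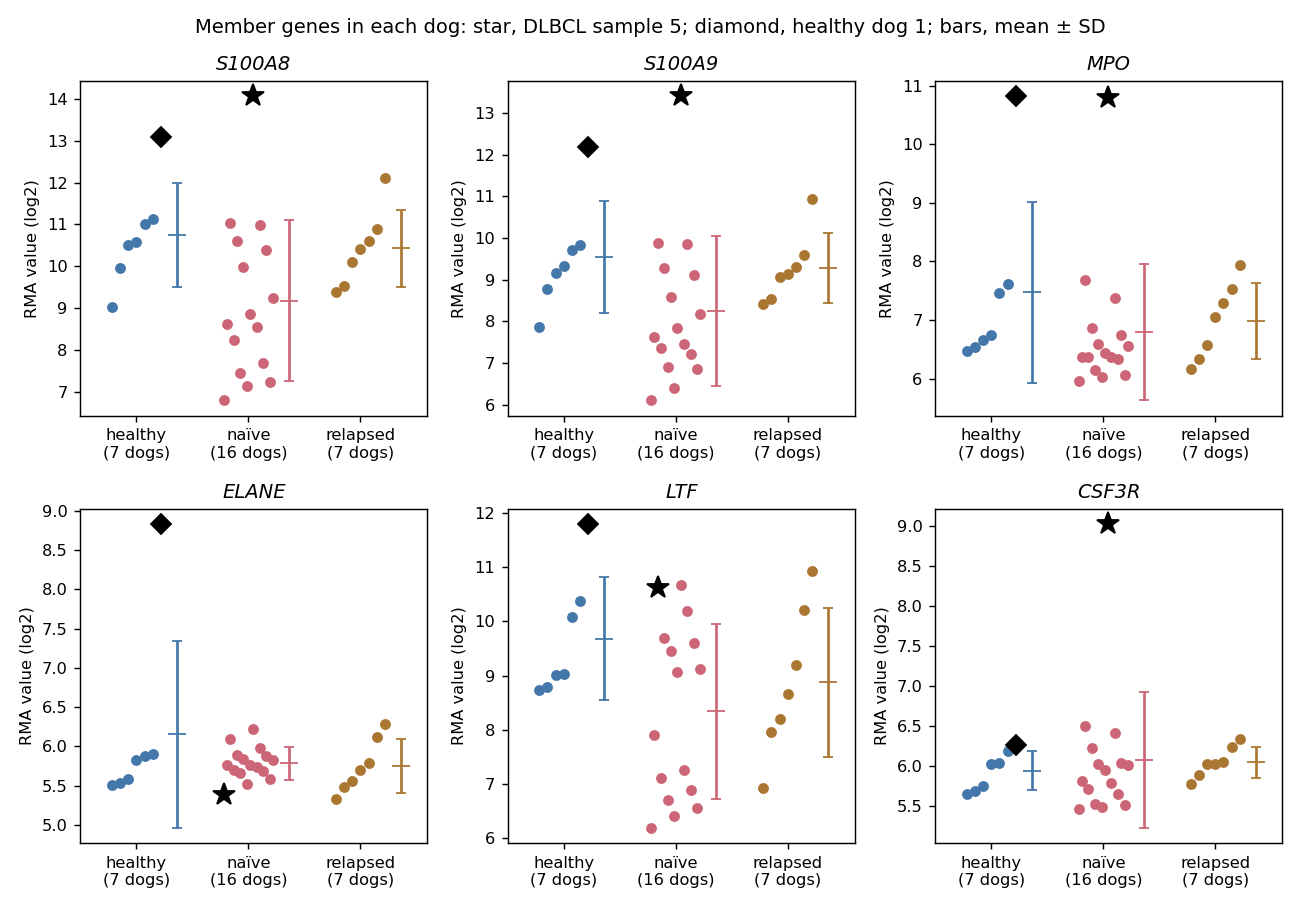
RMA values (log2) of the 6 measured genes by their brightest probeset in each dog of the healthy, naïve and relapsed groups, with group means and SD beside the points; the star marks DLBCL sample 5 and the diamond healthy dog 1. Sample 5 is the highest naïve dog in S100A8, S100A9, MPO and CSF3R, whereas in ELANE only healthy dog 1, at 8.83, stands apart.

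The comparison of DLBCL with healthy nodes asks which transcripts separate tumour from normal tissue. None of the 6 genes passed it when each dog counted once (limma, 22 against 7 dogs, Benjamini-Hochberg adjusted p under 0.05 over all 43035 probesets); LTF alone had an unadjusted p under 0.05. The differences were -1.20 for S100A8 (SE 0.69, 95% interval -2.62 to 0.22, adjusted p = 0.193), -0.97 for S100A9 (SE 0.66, adjusted p = 0.269), -1.24 for LTF (SE 0.61, interval -2.48 to -0.0025, adjusted p = 0.118), -0.63 for MPO (SE 0.49, adjusted p = 0.335), -0.39 for ELANE (SE 0.25, adjusted p = 0.25) and 0.14 for CSF3R (SE 0.27, adjusted p = 0.732). Their median was -0.80, and over all probesets it was 0.063. Of all probesets 19% were called higher and 13.6% lower in DLBCL, and 0 of the 6 genes were called in either direction. The second LTF probeset differed by 0.12 (interval -0.38 to 0.63), and the other CSF3R probesets by 0.08 and 0.13.

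The count of calls was larger where arrays of a dog entered separately. Where all 33 arrays counted as separate samples, limma called 5 of the 6 genes lower in DLBCL, namely S100A8 (-1.89, adjusted p = 0.0132), S100A9 (-1.77), MPO (-1.63), LTF (-1.82) and ELANE (-1.18). That fit held healthy dog 1 in 4 of 10 healthy arrays and called 25.8% of all probesets higher and 17.3% lower. With RNA integrity as a covariate the differences were -3.23 for MPO, -3.35 for LTF, -2.44 for S100A8, -2.53 for S100A9 and -2.19 for ELANE, and ELANE alone was called (limma adjusted p = 0.00423). RNA integrity was lower in healthy than in DLBCL dogs, and among healthy dogs it was highest in healthy dog 1, the only dog with raised ELANE. This fit therefore cannot separate disease from RNA integrity and that dog. With healthy dog 1 left out, the differences were -0.81 for S100A8, -0.53 for S100A9, -0.89 for LTF, -0.08 for MPO and 0.06 for ELANE, and none was called. Without sample 5 and with all healthy dogs, S100A8 differed by -1.41 (adjusted p = 0.0688) and CSF3R by -0.0039, also without a call. In bulk tissue fewer neutrophils and less RNA per neutrophil cannot be told apart.

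In naïve DLBCL against healthy nodes, the calls of the calgranulins differed with sample 5 and with the model. With all 16 naïve and 7 healthy dogs S100A8 differed by -1.57 (SE 0.70, interval -2.99 to -0.15, adjusted p = 0.0831) and S100A9 by -1.29 (SE 0.66, adjusted p = 0.138), and 0 of the 6 genes passed, 2 of them (S100A8 and LTF) with an unadjusted p under 0.05. With sample 5 kept, limma called S100A8 with dog as a random block (-1.72, adjusted p = 0.0431) and both S100A8 (-1.55, adjusted p = 0.0162) and S100A9 (-1.30, adjusted p = 0.0286) with array weights. Without sample 5 both calgranulins were lower in naïve DLBCL, S100A8 by a difference of -1.89 (SE 0.57, adjusted p = 0.0100) and S100A9 by -1.63 (SE 0.51, adjusted p = 0.0128), where 20.6% of probesets were called higher and 14.7% lower. With healthy dog 1 left out too, S100A8 was still lower, at -1.51 (adjusted p = 0.0417), while S100A9, at -1.20 (adjusted p = 0.057), was not called. Sample 5 was the highest naïve dog in both genes and was singled out for its neutrophil genes. Leaving it out by itself lowers the naïve means, so the calls without it are not independent support for a difference. With all dogs the background in this comparison was 19.2% of probesets higher and 13.6% lower.

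In relapsed DLBCL against healthy nodes no gene was called. S100A8 differed by -0.32 (SE 0.82, adjusted p = 0.832), S100A9 by -0.27 (SE 0.78), LTF by -0.81, MPO by -0.49, ELANE by -0.40 and CSF3R by 0.11, with 0 of 6 genes past either threshold in 7 against 7 dogs and a background of 10.2% of probesets higher and 8.43% lower. Without healthy dog 1 the differences of S100A8 (0.06), S100A9 (0.17), MPO (0.06) and ELANE (0.05) were on the other side of 0. The interval of S100A9, from -1.87 to 1.33, held differences of 1 log2 unit in either direction.

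Between relapsed and naïve DLBCL, no gene was called by limma, and 0% of all 43035 probesets passed in either direction, 2392 of them with an unadjusted p under 0.05. S100A8 was 1.24 higher in relapsed dogs (SE 0.70, interval -0.18 to 2.67, unadjusted p = 0.0837, adjusted p = 0.901) and S100A9 1.02 higher (SE 0.66, adjusted p = 0.907), whereas LTF differed by 0.53, MPO by 0.19, ELANE by -0.03 and CSF3R by -0.03. None of the 6 had an unadjusted p under 0.05 in this fit, which ignores that samples 11 and 12 share a dog. With dog as a random block S100A8 had an unadjusted p of 0.0444 (adjusted p = 0.636), and with array weights S100A8 and S100A9 had unadjusted p of 0.0167 and 0.0231 (adjusted p = 0.92 for both). Without samples 11 and 12 the interval of the S100A8 difference was -0.38 to 2.77 (adjusted p = 0.913). Without sample 5, the S100A8 difference was 1.57 (interval 0.41 to 2.73, unadjusted p = 0.00999) and the S100A9 difference 1.37 (interval 0.32 to 2.41), with an adjusted p of 0.793 for both. Leaving out that dog, the highest naïve value in both genes, by itself raises these differences. The naïve and relapsed comparisons with healthy tissue share the 7 healthy dogs.

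**Figure D2:**
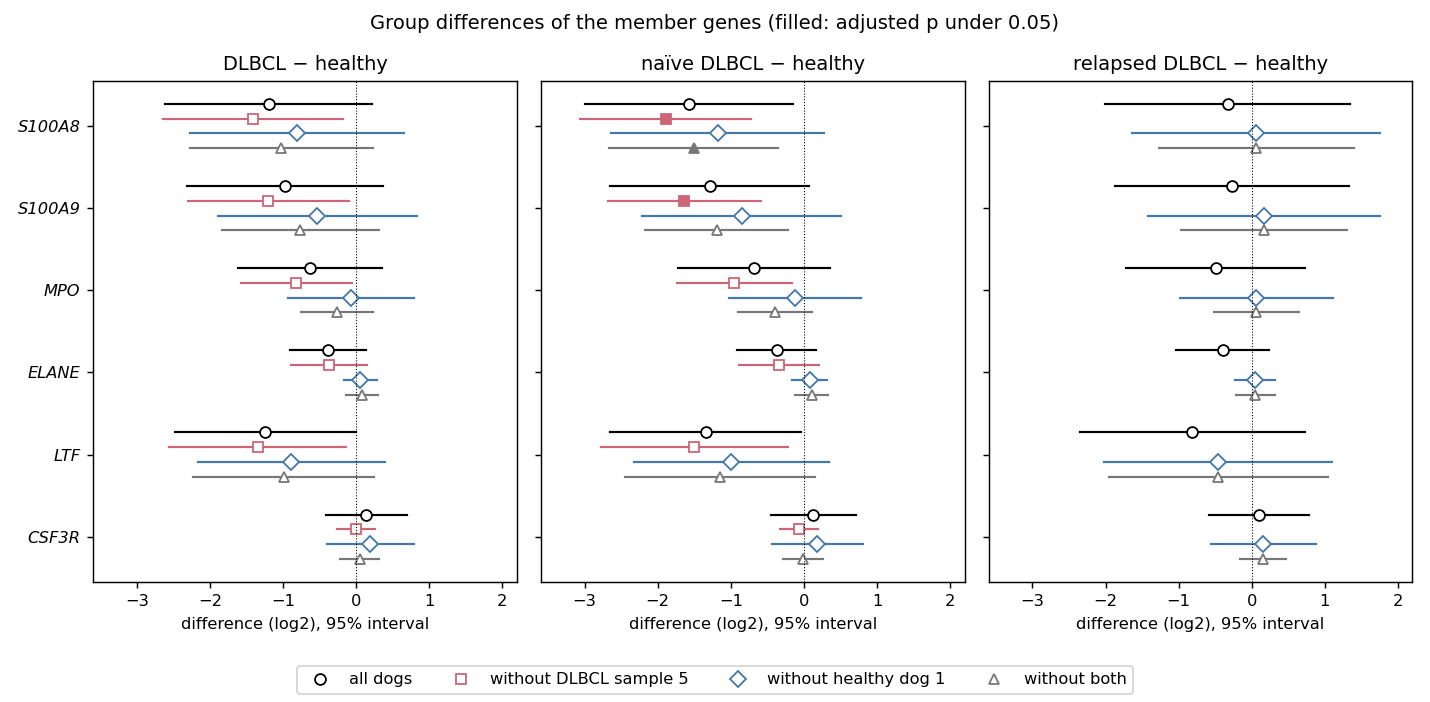
Differences between groups (log2) for the 6 genes with 95% intervals, with all dogs, without DLBCL sample 5, without healthy dog 1 and without both; in the relapsed panel sample 5 enters the shared spread only, and a filled symbol marks an adjusted p under 0.05. Filled symbols appear for S100A8 and S100A9 in naïve DLBCL without sample 5 and for S100A8 without both, and the ELANE difference moves to just above 0 without healthy dog 1.

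Sample 5 was high in 5 of the 6 genes and not raised in ELANE. Against the median of the other 21 DLBCL dogs, S100A9 was 4.98 higher (13.40 against 8.42), S100A8 4.53 higher (14.06 against 9.53), MPO 4.24 higher (10.79 against 6.55), CSF3R 3.02 higher (9.02 against 6.00) and LTF 2.42 higher (10.63 against 8.20). It exceeded the next DLBCL dog by 2.86 in MPO, 2.53 in CSF3R, 2.47 in S100A9 and 1.96 in S100A8, but by the brighter LTF probeset it was the third highest. ELANE was at 5.38, the 21st of 22 in a range of only 5.32 to 6.29. The other CSF3R probesets were 1.27 and 0.31 above the median of the other tumours, and the second LTF probeset 1.38 above it. Across the array 5.87% of probesets were more than 1 above that median in sample 5, and 0.156% of probesets had a larger excess than S100A9.

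Healthy dog 1 had another profile over the same 6 genes. Against the median of the other 6 healthy dogs it was higher by 4.11 in MPO, 3.13 in ELANE, 2.94 in S100A9, 2.79 in LTF and 2.54 in S100A8, but only by 0.38 in CSF3R. Its 4 arrays agreed: MPO lay between 10.43 and 11.19, LTF between 11.52 and 12.00 and S100A8 between 12.69 and 13.40. Of all probesets 3.68% were more than 1 higher in this dog, and 0.0256% had a larger excess than MPO.

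The other granule genes extended both profiles. In sample 5, 9 of 18 measured granule genes were above all other DLBCL dogs, where 10.3% of named genes were. SLPI, a leukocyte protease inhibitor, was at 14.23 against a median of 7.43, MMP9, the gelatinase of tertiary granules, at 12.01 against a highest other value of 9.28, and CHI3L1, a chitinase-like protein of secondary granules, at 11.45 against a highest other value of 10.54. CTSG, the primary granule protease cathepsin G, was at 9.61 against 6.05 in the same array in which ELANE was not raised, while LCN2, the secondary granule siderophore-binding lipocalin, was at 5.45, the lowest of the 22 dogs. In healthy dog 1, 12 of the 18 exceeded all other healthy dogs, where 18.6% of named genes did, with CTSG 3.48, CAMP (the cathelicidin) 3.42, PGLYRP1 (a peptidoglycan-binding protein) 3.22 and BPI (a bactericidal protein of primary granules) 3.11 above their median. LCN2 was also the lowest of the 7 healthy dogs there, at 7.72.

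**Figure D3:**
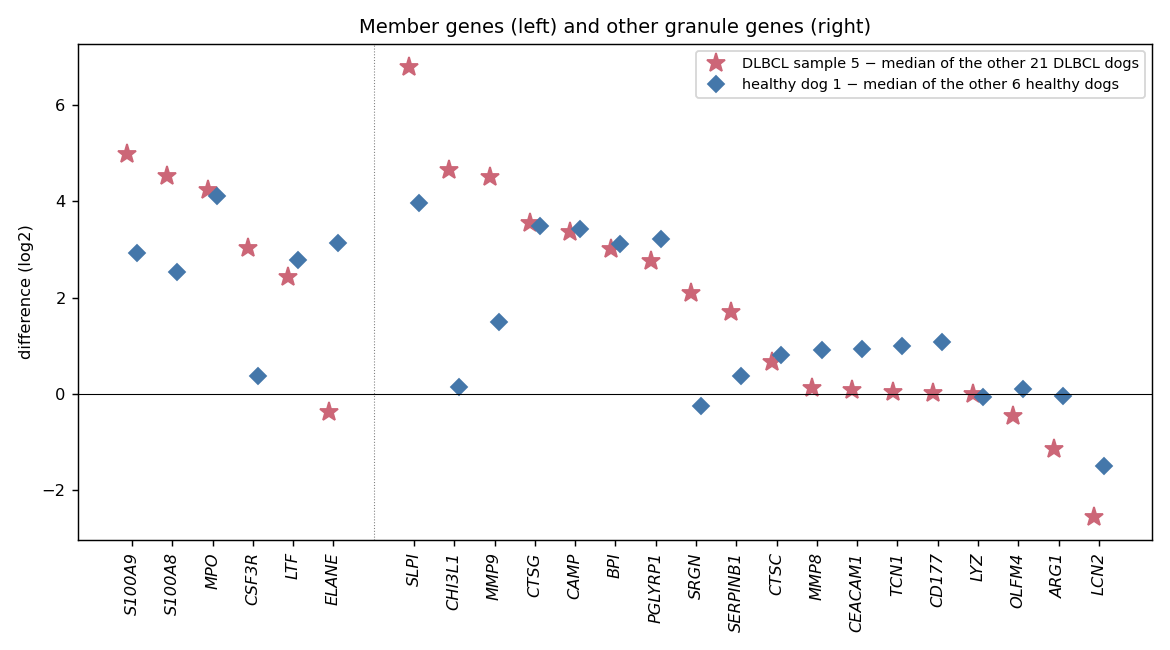
Difference (log2) of DLBCL sample 5 from the median of the other 21 DLBCL dogs and of healthy dog 1 from the median of the other 6 healthy dogs, for the 6 member genes and 18 other granule genes by their brightest probeset. ELANE is 3.13 higher in healthy dog 1 and differs by -0.39 in sample 5, CSF3R is 3.02 higher in sample 5 and 0.38 in healthy dog 1, and CTSG, CAMP, BPI and PGLYRP1 are high in both.

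Genes of neighbouring cell types moved with these libraries, and their part in the results was not tested. In sample 5 the mean of 14 monocyte and macrophage genes was 11.03, with 8.08 to 10.50 in the other tumours. Of the 14, 5 were above all other tumours, where 10.3% of named genes were. FCGR1A, the high-affinity IgG receptor, was at 13.49 against a highest other value of 10.19. MARCO ranked 12th of the 22 tumours, MRC1 6th and CD68 5th. The mean of 7 bone marrow progenitor genes was 8.99, with 5.76 to 6.60 in the other tumours. Of the 7, 4 were above all other tumours, where 10.3% of named genes were. They were GATA2 (9.19), FLT3 (12.92), KIT (10.96) and MYB (9.17), the last 3 a cytokine receptor, the stem cell factor receptor and a transcription factor of progenitors. CD34 (11.16, highest other 11.57), PROM1 (4.03, highest other 5.80) and TAL1 (5.52, highest other 5.67) were not. The mean of 6 mast cell and basophil genes was 9.75, with 5.32 to 7.37 in the other tumours, led by MS4A2 (12.02) and FCER1A (13.23), chains of the IgE receptor, and the proteases CPA3 (12.28) and CMA1 (12.86). HDC, the enzyme that makes histamine, was at 4.73 and HPGDS at 3.38, within the level of the tag controls or little above it. The mean of 8 B cell genes was the lowest of the 22 tumours, 8.18 with 10.49 to 11.42 in the others.

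Healthy dog 1 was above all other healthy dogs in the 14 monocyte and macrophage genes, and in 18.6% of named genes. Its mean over the 14 monocyte and macrophage genes was 11.44, with 8.88 to 10.07 in the other healthy dogs, and MSR1, SIGLEC1 and FCGR1A, receptors of macrophages, were 4.26, 4.09 and 3.96 above the median. Its progenitor mean was 7.32, with 6.82 to 7.29 in the others, and its B cell mean of 10.45 lay within their range. Its mean over 5 eosinophil genes was 7.48, with 5.71 to 6.28 in the other healthy dogs, where EPX, the eosinophil peroxidase related to MPO, was at 8.39, although in sample 5 EPX was at 5.19, the lowest of the tumours, with an eosinophil mean of 7.24 against 5.40 to 6.64 in the others. The mast cell and basophil mean of healthy dog 1 was 8.58, with 6.72 to 7.55 in the other healthy dogs, and its T cell mean was the lowest, 10.31 with 10.98 to 11.26. The erythroid and blood list gave no such excess in sample 5 (7.40, 17th of 22 tumours) and a small one in healthy dog 1 (7.97, with 7.58 to 7.80 in the others). Platelet genes were at 6.47 in sample 5, within the other tumours. The mean of 7 genes of squamous epithelium, which can also carry S100A8 and S100A9, was 5.25, the lowest of the tumours. Only 1 of the 7, KRT10 (7.43 against a median of 9.87), was itself the lowest, and IVL ranked 3rd. The median difference of the 7 genes from the other tumours was -0.04.

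**Figure D4:**
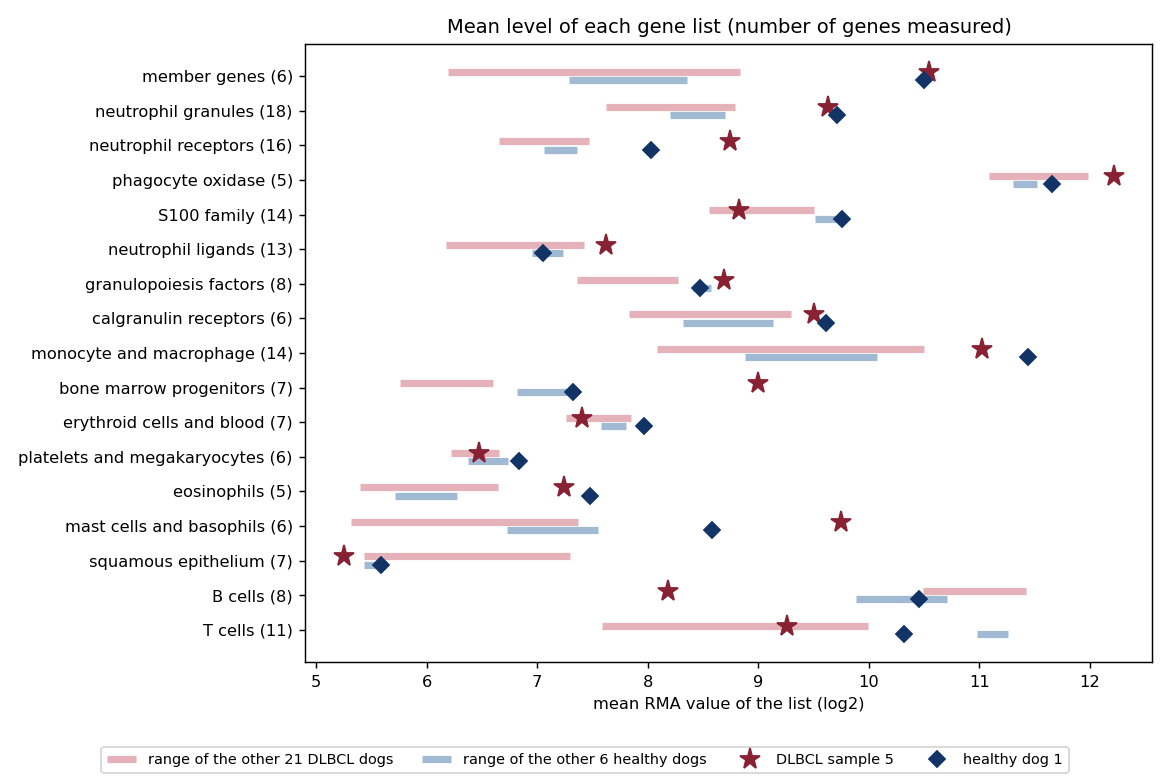
Mean RMA value (log2) of each gene list in DLBCL sample 5 and healthy dog 1, with bars for the range of the other DLBCL and the other healthy dogs and the number of genes measured in parentheses. Sample 5 lies above the other tumours in most lists, among them the progenitor and mast cell lists (8.99 and 9.75). It lies below them in the B cell list (8.18) and the squamous list (5.25).

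Ranked over 10874 named genes with a mean of at least 6 over all 22 DLBCL dogs, the 15 that were highest in sample 5 against the other tumours held SLPI (6.80 above the median), ENPP3, an ectoenzyme of basophils and mast cells (5.86), FCGR1A (5.60), FHL2 (5.58), FLT3 (5.57), SLC1A3 (5.56), ALPL, the alkaline phosphatase of mature neutrophils and other tissues (5.49), MS4A2 (5.43), COL4A6 (5.39), FCER1A (5.34), PIR (5.31), DSCAML1 (5.24), TREM1, a receptor of neutrophils and monocytes (5.23), CPA3 (5.10) and ARV1 (5.06). 3 of these, FHL2, COL4A6 and DSCAML1, had means of 5.78, 5.85 and 5.95 without sample 5 and entered the ranking only through it. For SLC1A3, DSCAML1 and ARV1 another tumour came within 0.43 of sample 5. The 10 lowest were TFAP2B (-6.04), KLHL14 (-5.46), ASIC5, DYNC1I1, LOC489647, LOC475936, SLC38A11, AK8, LAMP3, a protein of mature dendritic cells (-4.62), and MS4A1 (-4.61). S100A9, S100A8 and MPO themselves ranked 68th, 101st and 137th of all 43035 probesets.

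Receptors of neutrophils were also high in both libraries. In sample 5, 10 of 16 measured receptor genes were above all other DLBCL dogs, where 10.3% of named genes were. Among them were TREM1 (11.15 against a median of 5.92), MGAM, a maltase of mature neutrophils (9.10 against 4.50), IL1R2, the decoy receptor for interleukin-1 (11.28 against 6.77), and MCEMP1, a membrane protein of mast cells and neutrophils (10.88 against 6.70). In healthy dog 1, 10 of 16 were also above all other healthy dogs, where 18.6% of named genes were. Only 3 were more than 1 above the median, IL1R2 (3.11), ADGRE1 (2.82) and TREM1 (1.53), where 3.72% of named genes were. Of 13 measured ligands and receptor chains, 5 were above all other tumours in sample 5, where 10.3% of named genes were. CXCL8, the chief neutrophil chemokine, was at 11.73 (median 6.66, highest other 11.48) and IL1B at 8.60 (median 4.59, highest other 6.03). CSF3, the ligand of CSF3R, was at 7.04 against a median of 7.17. CXCL12 (10.05) and IL17F (4.41) were the lowest of the 22 tumours. Of 8 granulopoiesis factors, 4 were above all other tumours in sample 5. CEBPE, a transcription factor of secondary granule genes, was at 8.60 in sample 5 and at most 6.23 in the other tumours. GFI1, a repressor needed for neutrophil maturation, was at 12.43 (median 8.24, highest other 10.95). SPI1 (9.81, highest other 9.71) and LEF1 (8.74, highest other 6.85) were also above. Of the rest, PER3 ranked 22nd, TRIB1 21st, RUNX1 18th and KLF5 14th of the 22 tumours.

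Across the 22 DLBCL dogs the calgranulins followed each other closely. S100A8 and S100A9 had a Pearson r of 0.98 (permutation p = 1e-05, the smallest that 100000 permutations can give, adjusted p = 0.00015) and a Spearman rho of 0.98 (permutation p = 1e-05, adjusted p = 0.00015). The relation did not rest on sample 5, with r = 0.98 and rho = 0.98 in the other 21 dogs and r = 0.98 without the 2 dogs farthest from the median of S100A8. MPO and LTF, of primary and secondary granules, had r = 0.63 (adjusted permutation p = 0.000225) and rho = 0.78 (adjusted permutation p = 0.000225), and r = 0.73 (adjusted permutation p = 0.00187) and rho = 0.75 (adjusted permutation p = 0.0009) without sample 5. Without the 2 dogs farthest from the median of MPO, r was 0.78.

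Fewer pairs were called without sample 5. 9 of the 15 pairs of the 6 genes had an adjusted permutation p under 0.05 by Pearson's r with all 22 dogs, but 3 without sample 5, the third being S100A9 with CSF3R (r = 0.77 with all dogs, adjusted permutation p = 0.0011, and 0.56 without sample 5, adjusted permutation p = 0.0387; rho 0.65 and 0.60). Its r was 0.59 without the 2 dogs farthest from the median of S100A9. The r of LTF with S100A8 was 0.53 with all dogs and 0.45 without sample 5, and that with S100A9 0.54 and 0.46, with an adjusted permutation p of 0.0868 for both without it. CSF3R and MPO had r = 0.73 with all dogs and -0.22 without sample 5 (adjusted permutation p = 0.0583 and 0.459), where rho was -0.17 (adjusted permutation p = 0.556) and -0.35 (0.207), and r was -0.25 without the 2 dogs farthest from the median of CSF3R. S100A8 and MPO had r = 0.67 and 0.44 (adjusted permutation p = 0.00276 and 0.0868), and rho = 0.44 and 0.35 (adjusted permutation p = 0.0801 and 0.207). ELANE had no positive relation to any of the other genes past the threshold, and its r with CSF3R was -0.47 (adjusted permutation p = 0.0442), or -0.41 without sample 5 (adjusted permutation p = 0.0956).

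**Figure D5:**
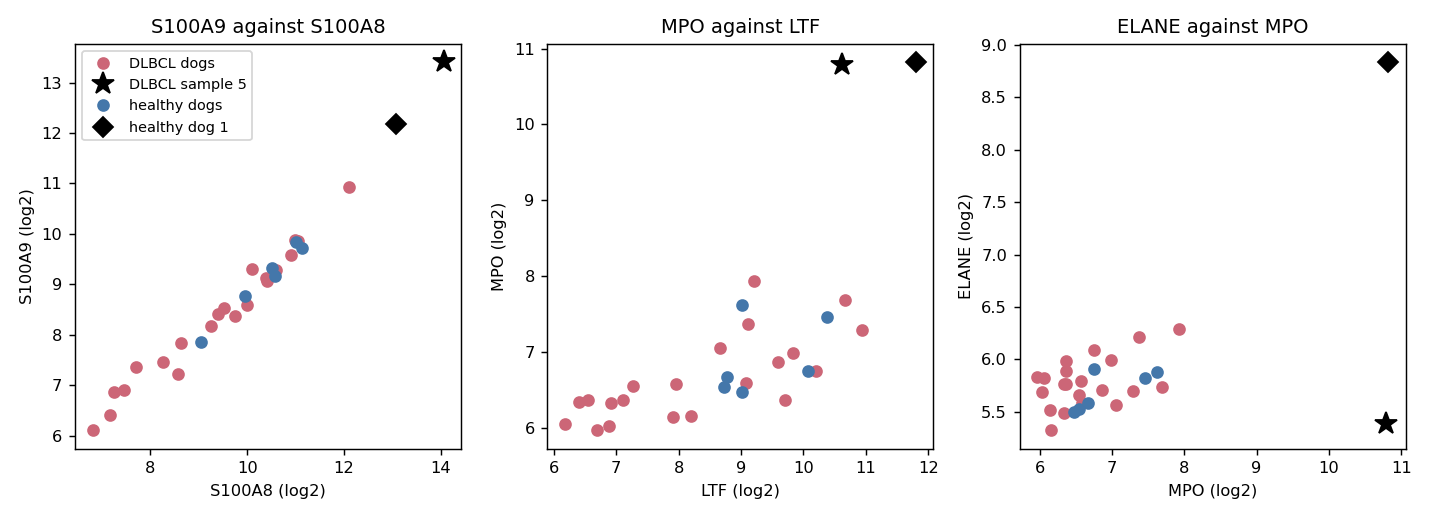
RMA values (log2) of S100A9 against S100A8, MPO against LTF and ELANE against MPO in each DLBCL and healthy dog, with sample 5 as a star and healthy dog 1 as a diamond. The calgranulins lie on 1 line in both tissues, while sample 5 and healthy dog 1 share an MPO value near 10.8 and differ in ELANE (5.38 and 8.83).

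The genes most like each member differed with and without sample 5, as described by Pearson's r over points that share an array platform and normalisation. Over all 22 DLBCL dogs the nearest were PGLYRP1 (r = 0.81), SLPI (0.79) and DENND2B (0.79) for S100A8, DENND2B (0.82), SSBP2 (0.81) and FCGR1A (0.80) for S100A9, HK3 (0.95), MCEMP1 (0.93) and BMX (0.92) for CSF3R, and CTSG (0.93), IL18R1 (0.91) and SLPI (0.89) for MPO. Over the 21 dogs without sample 5 MPO was nearest to CTSG (0.84), SLPI (0.83) and CAMP (0.83). S100A8 and S100A9 then shared PDGFRA (0.77 and 0.76), LOC479668 (0.76 and 0.77) and TEK (0.74 and 0.75), and CSF3R was nearest to LMNA (0.73), CACNG7 (0.68) and HK3 (0.68). LTF was nearest to BMPER with and without it (0.78 and 0.76), followed by JAML and SLPI (both 0.68) and, without it, CYRIA (0.69) and LOC478702 (0.68). ELANE, which varied little, was nearest to TUBB1 (0.74), PPP1R42 (0.68) and MRPS23 (0.68), and to ATP6V1B1 (0.73), TUBB1 (0.70) and CAMTA2 (0.69) without sample 5. All these are the highest of many correlations over few dogs, and the r to be had by chance was not estimated. PPP1R42 (median 2.98 in the other tumours) was within the level of the tag controls. BMPER (4.56), CACNG7 (4.71) and ATP6V1B1 (4.92) were near their upper end.

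Other genes of the pathway are set beside a background, by the brightest probeset of each of 15115 named genes, of 19.9% called higher and 14.9% lower in DLBCL, or 18.6% and 14.9% without sample 5 and healthy dog 1. Of 18 measured granule genes, 0 were higher and 4 lower in DLBCL than in healthy dogs, namely SRGN, the granule proteoglycan serglycin (-1.62), LCN2 (-1.54), SERPINB1, an elastase inhibitor (-1.22), and LYZ, lysozyme (-0.32). Without both libraries there were 6 lower, CTSG and MMP9 being added, and 1 higher, CD177. CAMP (-1.25) and SLPI (-1.26) were as far below healthy tissue as LTF but were not called. Of 16 receptors, IL1R2 (-2.03), SELPLG, the selectin ligand (-1.12), CLEC7A, the receptor dectin-1 (-0.72), and ANPEP, an aminopeptidase (-0.64), were lower, and TLR2 (0.47) and LTB4R, a leukotriene receptor (0.23), higher. Without both libraries 2 receptors were lower, ANPEP and CLEC7A no longer being called, and 2 higher.

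Of 14 other measured genes of the S100 family, 9 were lower in DLBCL and none higher, with a median of -0.77, against that background of 14.9% lower. The count without sample 5 and healthy dog 1 was also 9, with S100A5 called in place of S100A1. S100A2 was lower by a difference of -2.06 (SE 0.38), S100A4, a calcium-binding protein of motile cells, by -1.23, S100A10, a partner of annexin A2, by -0.96 and S100A13 by -0.87. Of 6 calgranulin receptors, CD69 (-0.64) was lower and none higher, and TLR4 differed by -0.08 and AGER, the receptor RAGE, by -0.19. Of the 5 phagocyte oxidase genes, CYBA (0.25) was higher.

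Among 13 ligands and their receptor chains, CXCL12, the chemokine that retains neutrophils in marrow (-1.50), CSF2, the growth factor GM-CSF (-1.04), its receptor chain CSF2RA (-1.02) and IL1A (-0.44) were lower in DLBCL and CSF3 was higher (0.23). Of 8 granulopoiesis factors, LEF1 (-3.75) and GFI1 (-2.54), both also expressed by T cells, were lower and RUNX1 (0.22) was higher. Without both libraries CXCL8 (-2.07, limma adjusted p = 0.0356) was also lower and PER3 (0.67) also higher. T cell genes moved with this comparison, 9 of 11 being lower, and their part in these values was not tested. Of 14 monocyte and macrophage genes, MARCO (-2.11), MRC1 (-1.18) and CSF1R (-0.72) were lower and VCAN (1.42) was higher, and MRC1 was not called without both libraries (-0.95, limma adjusted p = 0.11). The lists of other cells, to be read against the same background, gave 3 of 7 progenitor genes lower (4 without both libraries, MYB being added), 3 of 6 mast cell and basophil genes lower (again 3, with MS4A2 in place of HPGDS), 2 of 7 erythroid genes lower, 1 of 6 platelet genes higher and 1 lower, 0 of 5 eosinophil and 0 of 7 squamous genes called, and 2 of 8 B cell genes higher, or 5 of 8 without sample 5 and healthy dog 1. No gene of any of these lists was called between relapsed and naïve DLBCL.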

How the data were processed

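RNA was hybridised by the authors to 33 Affymetrix Canine Genome 2.0 arrays. The deposited values are log2 intensities after RMA, and the submitters' processing notes name Affymetrix Expression Console, RMA and Partek, with versions not given in the sources used here. The study's methods state 2 balanced RNA extraction batches, which the labels do not assign to samples. All 33 columns of values were used (0 were left out).

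Groups came from the labels on disease and earlier chemotherapy, and dogs from the case numbers. Arrays of a dog were averaged within each fit's groups, in the first fit also those of the dog with a naïve and a relapsed sample. Differences were tested with limma 3.58.1 in R 4.3.3 (lmFit and eBayes over 43035 probesets, Benjamini-Hochberg adjusted p under 0.05), in 1 fit of 22 DLBCL against 7 healthy dogs and 1 fit of naïve, relapsed and healthy dogs, without a filter on dim probesets. The dog with samples 11 and 12 entered the second fit in both DLBCL groups. The scripts were tested on simulated data. A gene is represented by its brightest probeset. Correlations used 100000 permutations, two-sided, adjusted over 15 pairs, since 1 of the 7 genes was not measured. The number of arrays limits the precision. Labels assign the samples to separate dogs, apart from those named.

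The platform annotation gave 1 symbol to 29264 probesets, for 15115 genes. The member genes, the gene lists and the tests were chosen with earlier results of these data known. Named genes were all members with every probeset, for each list up to 4 genes with the largest DLBCL difference and up to 4 highest in sample 5, the 15 highest and 10 lowest named genes of sample 5 with a DLBCL mean of at least 6, and the 3 genes nearest to each member by Pearson's r. Genes given for healthy dog 1 and further list genes were chosen after their values were seen.

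Alternatives were arrays as separate samples, the methods' one-way ANOVA, dog as a random block, RNA integrity as a covariate, median centring, leaving out probesets below the 25th percentile of mean expression, quantile normalisation, the mean of a gene's probesets, array weights, a block on the sample number, a block on array day, and leaving out samples. Array days were read from a supplementary list, in which 18 DLBCL arrays could be matched by sample number; its other entries were not matched to samples and were not used here.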

Additional observations from a re-analysis of the deposited data

Results flagged for a closer look

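Each of the 9 member probesets was examined for a single dog far from the rest in the 7 healthy and the 7 relapsed dogs, which gave 18 tests, of which 2 met Dixon's criterion. Chance alone gives about 1 in 20 such groups. Both were healthy dog 1. Its ELANE mean was 8.83, with the next healthy dog at 5.91, and its MPO mean was 10.82, with the next at 7.62. The gap made up 0.879 of the healthy range for ELANE and 0.735 for MPO. The naïve group, with 16 dogs and sample 5 among them, was not examined by this criterion here.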

How the results depend on the processing

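With arrays of a dog averaged within a group, 0 of the 6 genes were called in any of the 4 comparisons. For DLBCL against healthy nodes the count was 5 lower with arrays as separate samples, by limma or by the methods' ANOVA, 1 with RNA integrity as a covariate (ELANE, -2.19) and 1 with a replicate block on the sample number of the titles (LTF, -2.12, limma adjusted p = 0.0326). The numbers did not pair the arrays: over 9 shared numbers deviations from the group means correlated at -0.14 to 0.13, and 1 healthy array correlated best with its own number. For naïve against healthy nodes the count was 5 with arrays as separate samples, 2 with RNA integrity (ELANE and MPO), array weights or without sample 5 (both S100A8 and S100A9), and 1 (S100A8) with dog as a random block or without sample 5 and healthy dog 1 together, a setting chosen after seeing the data. Sample 5 was likewise left out with its high calgranulins known. For relapsed against healthy nodes it was 1 (ELANE) with arrays as separate samples or RNA integrity. With RNA integrity, 500 probesets were lower and 249 higher in DLBCL, against 5840 and 8178 without it, 667 and 460 in naïve dogs (5854 and 8275), and 258 and 66 in relapsed dogs (3628 and 4379). The cause of these differences was not tested. RNA integrity was lower in healthy dogs, and healthy dog 1, the only dog with raised ELANE, had the highest among them. 9 gene pairs had an adjusted permutation p under 0.05, and 3 without sample 5 or without the 2 farthest dogs. Of 402 alternative values of single genes, 349 kept direction and call, 27 gained a call and 26 changed sign. Leaving out each healthy dog in turn moved ELANE between -0.50 and 0.058 in DLBCL, -0.48 and 0.077 in naïve and -0.51 and 0.048 in relapsed dogs, and in relapsed dogs S100A8 between -0.61 and 0.063, S100A9 between -0.55 and 0.17 and MPO between -0.66 and 0.063, the positive values being those without healthy dog 1. Without both libraries ELANE was 0.077, 0.10 and 0.048 in DLBCL, naïve and relapsed dogs, CSF3R -0.013 in naïve dogs, and S100A8 0.063, S100A9 0.17 and MPO 0.063 in relapsed dogs. Without sample 5 CSF3R was -0.0039 in DLBCL and -0.066 in naïve dogs, and with array weights S100A9 was 0.026 in relapsed dogs. Between relapsed and naïve dogs CSF3R was 0.018 with dog as a random block, 0.11 with array weights, 0.17 without sample 5, 0.020 without sample 18, 0.24 in the 18 arrays of known day (chosen after seeing the data) and 0.18 with day as a block, and ELANE 0.0016 with dog as a random block, 0.068 with RNA integrity, 0.00055 with array weights and 0.0021 without sample 18.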
